A study of Homo sapiens with 8 samples.

Results

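The keratin genes were followed through the macroH2A1 domains of HepG2 cells. Members were all protein-coding genes in the RefSeq annotation of GRCh38.p14 (the assembly of hg38) whose symbol is KRT, a number and at most one letter from A to C. This gave 55 of the 20037 protein-coding genes. The rule uses no measured value, though it was chosen with earlier results of these data known. Of the 55 genes, 28 lie on chromosome 17, all of type I, and 27 lie on chromosome 12, of which 26 are of type II and 1, KRT18, is of type I. By their best known site of expression, 17 were classed as hair keratins, 9 as keratins of the inner root sheath and companion layer of the hair follicle, 5 as simple epithelial (KRT7, KRT8, KRT18, KRT19 and KRT20), 17 as stratified epithelial and 7 as other epithelial keratins.

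Keratins are the intermediate filament proteins of epithelia. A filament is built from pairs of 1 type I and 1 type II chain, and each kind of epithelium uses its own pairs: KRT8 with KRT18 in hepatocytes and other simple epithelia, KRT5 with KRT14 in the basal layer of stratified epithelia, KRT1 with KRT10 in the upper epidermis, and KRT31 to KRT40 with KRT81 to KRT86 in hair. Most keratin genes are therefore silent in any one cell type. macroH2A1 is a histone H2A variant that carries a macro domain and is known from broad tracts of weakly transcribed chromatin.

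HepG2, a human hepatoblastoma line grown in culture, received siRNA against the histone chaperone ANP32B (siANP32B) or a non-targeting control (siControl) and was harvested 3 days after transfection. CUT&RUN, in which an antibody tethers a nuclease to its target, was run on the same line for every group with anti-macroH2A1 (2 libraries per siRNA) or IgG (2 libraries per siRNA). The 4 IgG libraries were not analysed here. The data are 1 list of broad macroH2A1 domains per anti-macroH2A1 library, laid on a 1 kb grid, and the authors' table of regions compared between siANP32B and siControl. Whether the replicates were separate cultures is not stated in the labels, so that p-values measure only the spread between these libraries, which may be technical, and the depth of the libraries is unknown. Domains state where enrichment was called, not how much, and no expression was measured, so neither the knockdown nor the liver identity of the line could be checked here.

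Keratin genes lay in macroH2A1 domains more often than the average gene, and this rested mainly on type I. At least 50% of the gene body was in a domain for 35 and 33 of the 55 keratin genes in siControl, against 41 and 40 in siANP32B libraries. Over all protein-coding genes the share at this mark was 19.97% and 16.56% in siControl, against 24.27% and 20.67% in siANP32B libraries. The higher number after siANP32B was thus not confined to keratin genes. In both siControl libraries 33 keratin genes (60%) passed this mark, against 13.7% of all protein-coding genes. In all 4 libraries 32 keratin genes passed it (58.2%), against 11.5% of all protein-coding genes, and 27 of them were covered from end to end every time. Of all 20037 protein-coding genes 1345 were covered from end to end in all 4 libraries, and gene length was not matched. Neighbouring genes share domains, so the 55 genes are not 55 independent observations.

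The pair of clusters differed. On chromosome 17, 26 of 28 type I genes (92.9% of them) were covered in both siControl libraries, where the share over all coding genes of the chromosome was 22.8%. On chromosome 12, 7 of 26 type II genes (26.9%) were covered in both siControl libraries, against 11.7% of all coding genes of the chromosome. Of the summed gene length, type I genes on chromosome 17 had 97.9% and 93.3% in domains in siControl, against 98.5% and 97.4% in siANP32B libraries. Type II genes had 40.2% and 36.0% in siControl, against 63.5% and 56.1% in siANP32B libraries. Type I thus lay above type II by 57.8, 57.4, 35.0 and 41.3 percentage points in the 4 libraries (siControl, then siANP32B). An exact sign-flip test over the 4 libraries gave a two-sided p of 0.125, the smallest that 4 libraries allow. This contrast depended on the caller's score. When only domains at or above 1 common score (97.7, the largest of the 4 list medians) were kept, the mean over siControl libraries was 41.3% for type I and 35.6% for type II, and over siANP32B libraries 0% for type I and 12.1% for type II, so that type I lay below type II after siANP32B.

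**Figure D1:**
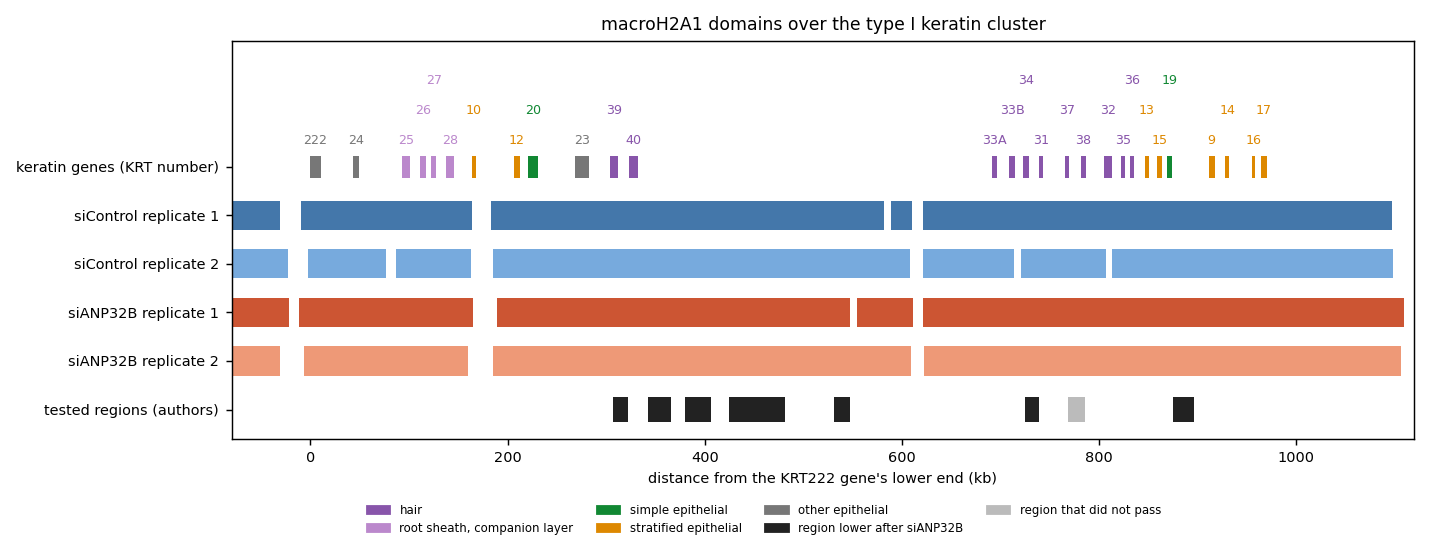
Domains of each library over the type I cluster, plotted by distance in kb from the lower end of KRT222, with keratin genes above (coloured by class) and the authors' tested regions below (black, lower after siANP32B; grey, did not pass). The domains run from KRT222 to KRT17 in all 4 libraries with short breaks, and each library has one at KRT10.

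The type I cluster spans 969.9 kb of chromosome 17, from KRT222 at 40654665 to KRT17, which ends at 41624575. Domains covered 932.9 and 910.9 kb of it in siControl, against 928.9 and 931.9 kb in siANP32B libraries, a difference of means of 8.5 kb (exact permutation p = 1). The whole run was carried by 4 and 6 domains in siControl, against 4 and 3 domains in siANP32B libraries. The longest of them measured 476 and 423 kb in siControl, against 488 and 484 kb in siANP32B libraries. Over the whole genome 33, 26, 64 and 54 domains of the respective lists, taken in the same order, were as long or longer.

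Within this run 25 of the 28 type I genes were covered from end to end in all 4 libraries, against 181 of the 1169 coding genes of chromosome 17. The 25 genes include the root sheath keratins KRT25 to KRT28, the simple epithelial keratins KRT20 of the gut and KRT19 of ducts, the corneal keratin KRT12, the palm and sole keratin KRT9, and the basal and stress-related keratins KRT14, KRT15, KRT16 and KRT17. The hair keratin KRT33B was covered by 100% in siControl replicate 1, 71.3% in siControl replicate 2 and 100% in both siANP32B libraries. KRT32, another hair keratin, had 100%, 31.6%, 100% and 100% in the same order. Both exceptions come from short breaks, of 8 and 6 kb, that were called in siControl replicate 2 alone. No list has a break shorter than 6 kb, so shorter interruptions would not be seen.

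KRT10, the type I chain of the upper epidermis, was the exception in every library. Its gene body (chromosome 17, 40818117 to 40822614) was covered by 19.7% and 0% in siControl, against 41.9% and 0% in siANP32B libraries. The domain on the KRT28 side ended at 40819000 and 40818000 in siControl, against 40820000 and 40815000 in siANP32B libraries. The next one began at 40838001 and 40840001 in siControl, against 40844001 and 40840001 in siANP32B libraries. The break was thus 19, 22, 24 and 25 kb long. The noncoding antisense gene KRT10-AS1 (40819145 to 40836274) fell inside it, with 0%, 0%, 5.00% and 0% in domains. The 250 bases upstream of the KRT10 start, shown further on, lay outside domains in all 4 libraries.

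A second break recurred between the keratin-associated protein genes and KRT33A. The domain over KRT33A began at 41276001 in both siControl libraries and in siANP32B replicate 1, and at 41277001 in siANP32B replicate 2, a spread of 1 kb. It ran on over KRT17 except in siControl replicate 2, where the breaks of 8 and 6 kb split the stretch. The domain over KRT17 ended past that gene, at 41752000 and 41753000 in siControl, against 41764000 and 41761000 in siANP32B libraries. JUP, which encodes the desmosome linker plakoglobin, starts 130.03 kb past KRT17, so that the siANP32B domains reached into it and these siControl domains stopped short of it. At the other end the run began between 40643001 and 40652001, ahead of KRT222. The 34 keratin-associated protein genes between KRT40 and KRT33A, which encode the matrix proteins of hair, were at least 50% covered in 31 and 32 cases in siControl, against 33 and 32 in siANP32B libraries. Domains covered 94.4 to 96.0% of the stretch that holds them, where the stretch from KRT12 to KRT40 was at 100% in all 4 libraries and that from KRT33A to KRT17 at 95.0% in siControl replicate 2 and 100% in the others.

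**Figure D2:**
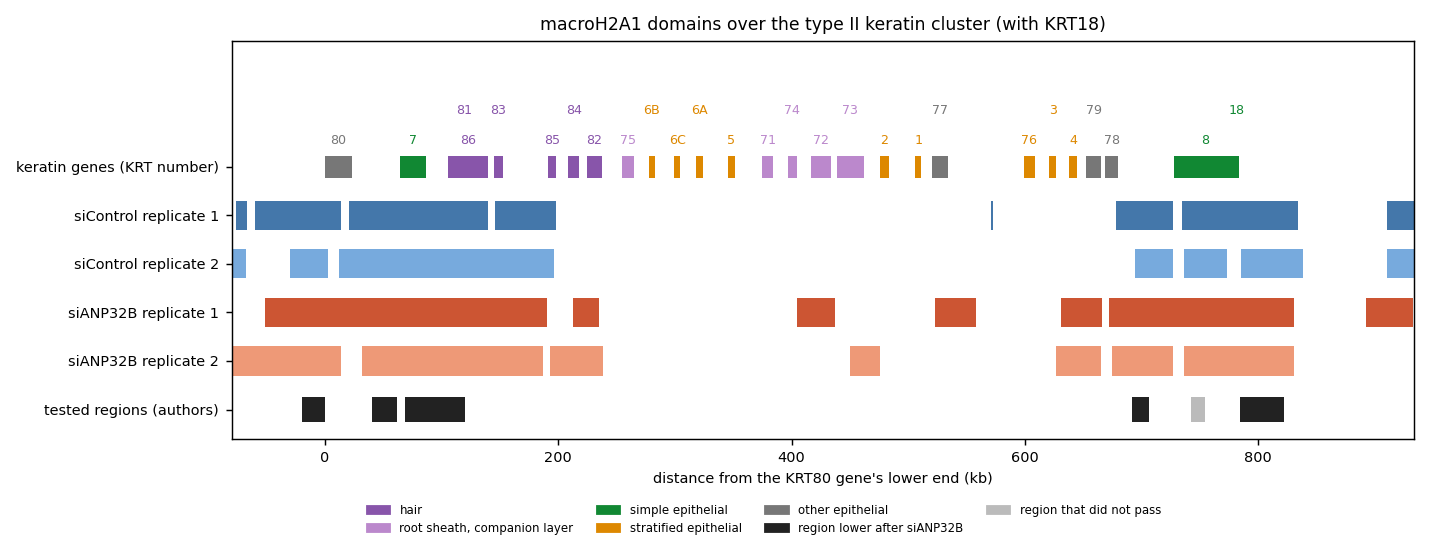
Domains of each library over the type II cluster and KRT18, plotted by distance in kb from the lower end of KRT80, with keratin genes above (coloured by class) and the authors' tested regions below (black, lower after siANP32B; grey, did not pass). Both ends are in domains in all 4 libraries, and the middle from KRT75 to KRT76 mostly is not. The siANP32B libraries have separate domains over KRT84 and KRT82 and over KRT4 and KRT79, each parted by a break from the block at its end. In replicates 1 and 2 the breaks are 23 and 6 kb at KRT85 and 6 and 10 kb at KRT78. The domain over KRT84 and KRT82 also reaches over KRT85 in replicate 2 only.

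The type II cluster was covered at its ends and mostly bare in its middle. It spans 783.9 kb of chromosome 12, from KRT80 at 52168996 to KRT18, which ends at 52952906. Domains covered 284.9 and 257.0 kb of it in siControl, against 425.9 and 377.9 kb in siANP32B libraries, or 271.0 ± 19.7 against 401.9 ± 33.9 kb (SD, n = 2 each). Both siANP32B libraries lay above both siControl libraries, a difference of 131.0 kb. The two-sided exact permutation p was 0.33, the smallest that 2 libraries against 2 allow.

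At the lower end, KRT7, the simple epithelial keratin of ducts and glands, was covered by 100% in all 4 libraries. So was the hair keratin KRT81, whose span lies within that of KRT86. KRT86 itself had 99.5% in siControl replicate 1 and 100% in the other libraries, and KRT83 90.1% and 100%. KRT80, a widely expressed keratin, had 69.6% and 60.9% in siControl, against 100% and 60.8% in siANP32B libraries, so the groups overlapped. Over the stretch from KRT80 to KRT83 (152.4 kb) domains covered 139.4 and 143.4 kb in siControl, against 152.4 and 134.4 kb in siANP32B libraries.

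The siANP32B libraries had a further domain past this block, whose inner limit depends on which breaks are counted. The last domain end before KRT84 lay inside KRT85 in siControl, at 52367000 and 52365000. In siANP32B libraries the block was taken to end before KRT85, at 52359000 and 52356000, where breaks of 23 and 6 kb begin. An equal break of 6 kb in siControl replicate 1, from 52309001 to 52315000, was not taken as an end. Past KRT85 nothing was called over the next hair keratins in siControl, while the siANP32B libraries had a domain there. KRT84, a hair keratin also found in the tongue, was covered by 0% in both siControl libraries and by 54.3% and 100% in the siANP32B libraries. KRT82, a hair cuticle keratin, had 0% and 0% in siControl, against 81.2% and 100% in siANP32B libraries. The siANP32B domain over these genes ran from 52382001 to 52404000 in replicate 1 and from 52362001 to 52407000 in replicate 2. KRT85 itself did not follow them: 93.6% and 66.8% were in domains in siControl, against 0% and 73.3% in siANP32B libraries, and the break of 23 kb in siANP32B replicate 1 took in the whole gene.

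On the far side of the cluster the siANP32B libraries also had a domain of their own. KRT4, the type II keratin of the oesophagus and oral lining, had 0% in both siControl libraries and 100% in both siANP32B libraries. KRT79, found in skin glands and the follicle opening, had 0% and 0% in siControl, against 100% and 97.6% in siANP32B libraries. KRT78 had 17.8% and 0% in siControl, against 71.4% and 44.6% in siANP32B libraries. The siANP32B domain over KRT4 and KRT79 began at 52800001 and 52796001. In siControl libraries the first domain on that side began at 52847001 and 52863001, beyond KRT79, and in siANP32B libraries a break of 6 and 10 kb parted the domain over KRT4 and KRT79 from the block that begins at 52841001 and 52844001.

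These 4 genes, KRT84, KRT82, KRT4 and KRT79, were the members at or above 50% in both siANP32B libraries and below it in both siControl libraries. They make up 7.27% of the members, against 2.2% of all protein-coding genes. They sit in 2 adjacent pairs, each pair under the same domain, so they stand for 2 changes and not for 4. The caller's score was 49.5 and 56.0 for the domains over KRT84 and KRT82 and 142.2 and 66.8 for those over KRT4 and KRT79 in the siANP32B libraries. No keratin gene moved the opposite way by this rule, where 0.594% of all protein-coding genes did. Without a mark, 5 keratin genes (the same 4 and KRT78) had a higher covered percent in both siANP32B than in both siControl libraries, 9.09% of the members and close to the 8.98% of all protein-coding genes. None had a lower one in both, against 2.92% of all protein-coding genes. The type I genes, nearly all at 100% already, could not rise by this measure.

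Upstream sequences are shown for 4 genes at the points where the domain state changed: KRT10, outside domains within the type I run in every library; KRT12, the next keratin gene, inside that run; and KRT84 and KRT4, whose upstream windows were outside domains in both siControl and inside them in both siANP32B libraries. Each is the 250 bases before the start given by the RefSeq promoter table of GRCh38.p14, on the minus strand and written 5′ to 3′: chr17:40822615-40822864, chr17:40867224-40867473, chr12:52385653-52385902 and chr12:52814117-52814366. Capitals mark every exact match to TATAAA (a form of the TATA box), CCAAT (the CCAAT box), GGGCGG (the GC box) or TGACTCA (an AP-1 motif), searched on both strands. None of the marked matches overlap. Variants of these motifs were not searched, so a window without a mark may still hold one.
KRT10: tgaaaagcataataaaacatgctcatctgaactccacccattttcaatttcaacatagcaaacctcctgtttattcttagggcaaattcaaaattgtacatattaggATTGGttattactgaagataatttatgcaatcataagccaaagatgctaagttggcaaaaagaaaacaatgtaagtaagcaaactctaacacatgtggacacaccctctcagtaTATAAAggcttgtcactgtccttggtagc
KRT12: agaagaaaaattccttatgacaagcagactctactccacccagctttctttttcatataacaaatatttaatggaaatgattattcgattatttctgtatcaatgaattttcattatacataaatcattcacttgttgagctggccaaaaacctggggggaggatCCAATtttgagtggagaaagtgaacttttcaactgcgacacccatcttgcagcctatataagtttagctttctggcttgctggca
KRT84: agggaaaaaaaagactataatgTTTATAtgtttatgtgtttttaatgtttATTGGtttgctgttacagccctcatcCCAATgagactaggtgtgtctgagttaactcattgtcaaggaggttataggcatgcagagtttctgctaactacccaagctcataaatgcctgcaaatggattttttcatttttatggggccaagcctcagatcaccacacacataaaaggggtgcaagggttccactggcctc
KRT4: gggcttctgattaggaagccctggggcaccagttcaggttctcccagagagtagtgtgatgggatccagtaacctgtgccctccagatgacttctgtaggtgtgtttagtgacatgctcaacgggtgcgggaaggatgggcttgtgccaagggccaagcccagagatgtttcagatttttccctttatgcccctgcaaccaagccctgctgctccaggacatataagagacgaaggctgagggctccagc

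In these windows KRT10 holds TATAAA beginning 29 bases before its start and CCAAT on the other strand. KRT12 has CCAAT beginning 85 bases before its start, and KRT4 has no exact match to any of the 4 motifs. The KRT84 matches, 228, 200 and 174 bases before the start, lie on either strand, and the listed start is 1.325 kb inside the annotated KRT84 span. The table lists 34 of the 55 members. Not listed were KRT1, KRT13 to KRT19, KRT222, KRT23, KRT6A, KRT6B, KRT6C, KRT7, KRT72, KRT77, KRT78, KRT80, KRT81, KRT83 and KRT86.

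Across the 34 listed keratin promoters (for genes with several starts, the one farthest upstream), TATAAA was found in 20 (58.8%), against 10.7% of all 35116 promoters in the table over the same 250 bases. CCAAT was found in 16 (47.1%) against 32.0%, GGGCGG in 4 (11.8%) against 42.6%, and TGACTCA in 0 against 4.20%. The median number of CpG dinucleotides was 2 in keratin promoters and 11 in all promoters. In these comparisons the 35116 promoters were not reduced to the start farthest upstream of each gene. Some of the 34 are near copies, such as those of KRT37 and KRT38 (90% identical), so they are not independent. TATAAA was found in 14 of 20 promoters on chromosome 17 and 6 of 14 on chromosome 12, and CCAAT in 13 of 20 and 3 of 14. The median CpG number was 2 on each chromosome, and it was also 2 both in the 18 promoters inside domains of all 4 libraries and in the 8 outside domains in all 4.

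Between these blocks, from KRT75 to KRT76 (353.3 kb), siControl libraries had 2 and 0 kb in domains and siANP32B libraries 67 and 26 kb. The genes there are the companion layer keratin KRT75, the wound-induced KRT6A, KRT6B and KRT6C, the basal keratin KRT5, the root sheath keratins KRT71 to KRT74, and KRT1, KRT2, KRT76 and KRT77. KRT5, KRT6A, KRT6B, KRT6C, KRT71, KRT74, KRT75, KRT1 and KRT76 were at 0% in all 4 libraries. The cover gained after siANP32B did not recur between its replicates. KRT72 was covered by 100% and KRT77 by 82.9% in siANP32B replicate 1 alone, and KRT73 by 50.7% in siANP32B replicate 2 alone. KRT2, of the upper epidermis, reached 5.79% in siANP32B replicate 2 and KRT3, a corneal keratin just past KRT76, 1.82%, and both were at 0% in the other libraries.

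**Figure D3:**
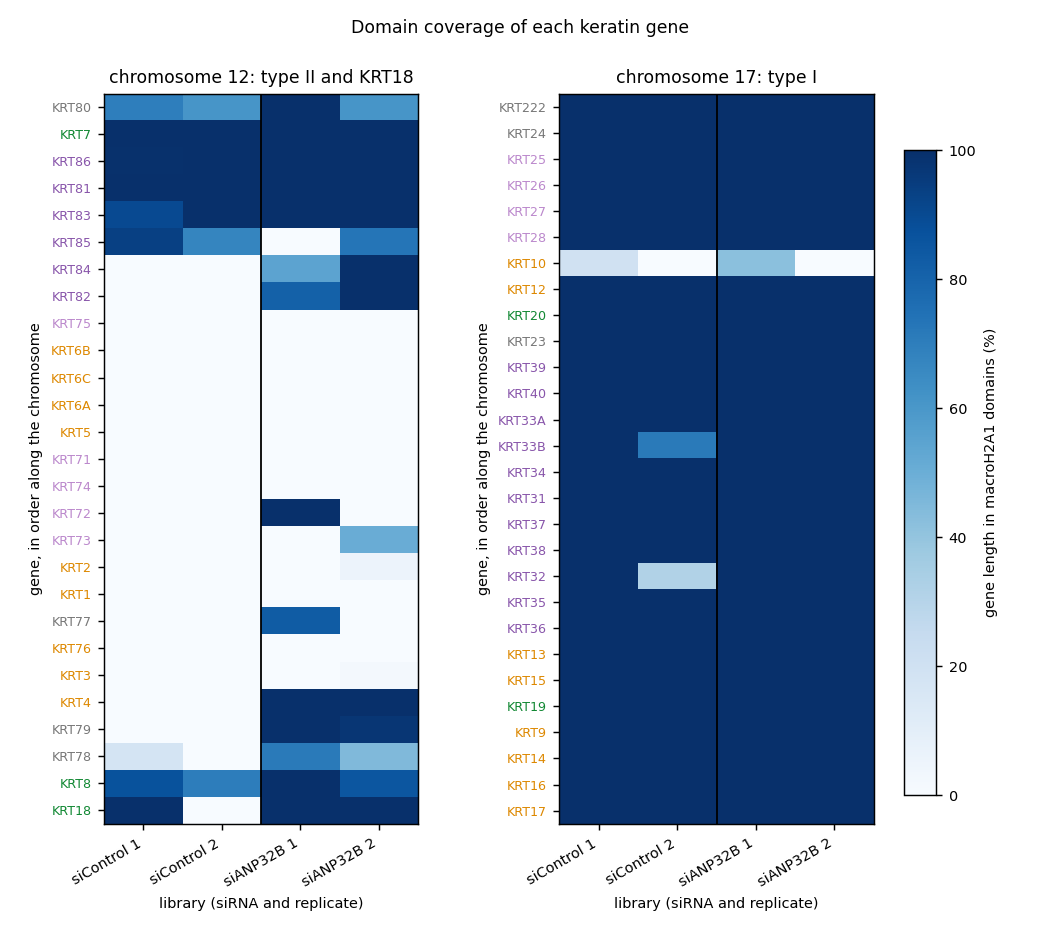
Percent of each keratin gene's length in macroH2A1 domains (colour scale, 0 to 100%), with genes in chromosomal order as rows, coloured by class, and the 4 libraries as columns. Chromosome 17 is filled except at KRT10 and, in siControl replicate 2, at KRT32 (31.6%) and KRT33B (71.3%). On chromosome 12 KRT84, KRT82, KRT4 and KRT79 are filled only right of the line that parts siControl from siANP32B.

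Over their annotated spans the hepatocyte pair KRT8 and KRT18, the keratins that liver cells are known for, lay mostly in domains. A break that reaches into KRT8 recurred in 3 of the 4 libraries, and KRT18 lay inside a break in siControl replicate 2 only. KRT8 (chromosome 12, 52897191 to 52949860) was covered by 87.1% and 70.2% in siControl, against 100% and 85.2% in siANP32B libraries. These percentages are over the whole annotated span of 52.67 kb, which runs past the listed KRT8 start (upstream window 52926470 to 52926719). Which part of the span is transcribed in these cells was not measured, so the percentages need not hold for a shorter transcript. In 3 of the 4 libraries the domain on the KRT78 side ended at the same position, 52896000, and the next one began at 52904001 in siControl replicate 1 and at 52905001 in siControl replicate 2 and siANP32B replicate 2. This break of 8 or 9 kb starts 1.19 kb below the annotated end of KRT8 and takes in the lowest 6.81 or 7.81 kb of the gene. A transcript confined to that stretch would lie outside domains in those 3 libraries. In siANP32B replicate 1 it was absent, and 1 domain of 159 kb ran through. KRT18, whose span overlaps that of KRT8 at its upper end, was covered by 100% in siControl replicate 1, 0% in siControl replicate 2 and 100% in both siANP32B libraries. The 0% comes from a break of 12 kb, from 52942001 to 52954000, called in siControl replicate 2 only.

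KRT8 and KRT18 also have many processed copies. The annotation lists 120 pseudogenes of the pair, and 27 of them (22.5%) were at least 50% covered in both siControl libraries, against 13.7% of all protein-coding genes. Most copies are short and were covered fully or not at all, so the 50% mark is not like for like. The sources used here do not say how reads that match several copies were placed, so breaks and cover over KRT8, KRT18 and close copies such as KRT6A, KRT6B and KRT6C, or KRT81, KRT83 and KRT86, are uncertain.

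By class, cover in siControl libraries was higher for simple epithelial and hair keratins than for the other classes, but hair, stratified and root sheath keratins each had more cover on chromosome 17 than on chromosome 12. On chromosome 17, 10 of 11 hair, 4 of 4 root sheath and 7 of 8 stratified genes were covered in both siControl libraries. On chromosome 12 these counts were 4 of 6, 0 of 5 and 0 of 9, so hair keratins stood clearly apart on chromosome 12 only. KRT8 alone makes up 52.67 of the 92.4 kb of simple epithelial gene length. Hair keratin genes were covered in 15 and 14 of 17 cases in siControl, against 16 and 17 in siANP32B libraries. Of their length, 83.0% and 76.8% was in domains in siControl, against 89.6% and 98.5% in siANP32B libraries, a difference of 14.2 points (exact permutation p = 0.33, the smallest possible). The 11 hair genes on chromosome 17 had 100% and 88.8% in siControl, against 100% in both siANP32B libraries, and the 6 on chromosome 12 had 67.6% and 66.0% against 80.2% and 97.2%. The 5 simple epithelial genes had 92.6% and 79.7% in siControl, against 100% and 91.5% in siANP32B libraries, so the groups overlapped (difference 9.59 points, exact permutation p = 0.667).

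Among stratified epithelial keratins, 7 of the 8 on chromosome 17 and 0 of the 9 on chromosome 12 were covered in both siControl libraries. Partner chains were therefore in unlike states in siControl cells: KRT14 at 100% and KRT5 at 0%, KRT12 at 100% and KRT3 at 0%, and KRT13 at 100% and KRT4 at 0%. KRT1 and KRT10 were both largely outside domains. Over the class 36.1% and 35.2% of gene length was in domains in siControl, against 44.8% and 43.5% in siANP32B libraries, a difference of 8.49 points (exact permutation p = 0.33). The root sheath class was divided in the same way, with KRT25 to KRT28 at 100% in all 4 libraries and KRT71 to KRT75 at 0% in both siControl libraries. The other epithelial keratins (KRT222, KRT23, KRT24, KRT77, KRT78, KRT79 and KRT80) had 53.4% and 49.0% in siControl, against 94.0% and 68.1% in siANP32B libraries.

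Over all 55 genes 60.3% and 55.4% of gene length was in domains in siControl, against 75.7% and 70.5% in siANP32B libraries, or 57.8 ± 3.46 against 73.1 ± 3.67% (SD, n = 2 each). The difference of 15.3 points was 21.8 points for type II and 2.34 points for type I on chromosome 17. The gap of 19.4 points between the changes had an exact permutation p of 0.33, the smallest possible. Type I on chromosome 17 was already at 95.6% on average in siControl and could rise little. The test therefore cannot separate a difference between the types from this ceiling. The direction depended on the caller's score. When only domains at or above that common score were kept, the difference over all 55 genes was -29.4 points. Scores were lower in siANP32B lists as a whole, with medians of 88.9 and 97.7 in siControl, against 70.1 and 67.5 in siANP32B libraries, and those lists covered more sequence in all, 563.8 and 558.6 Mb against 519.3 and 467.4 Mb. The part of either in the keratin result was not tested.

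**Figure D4:**
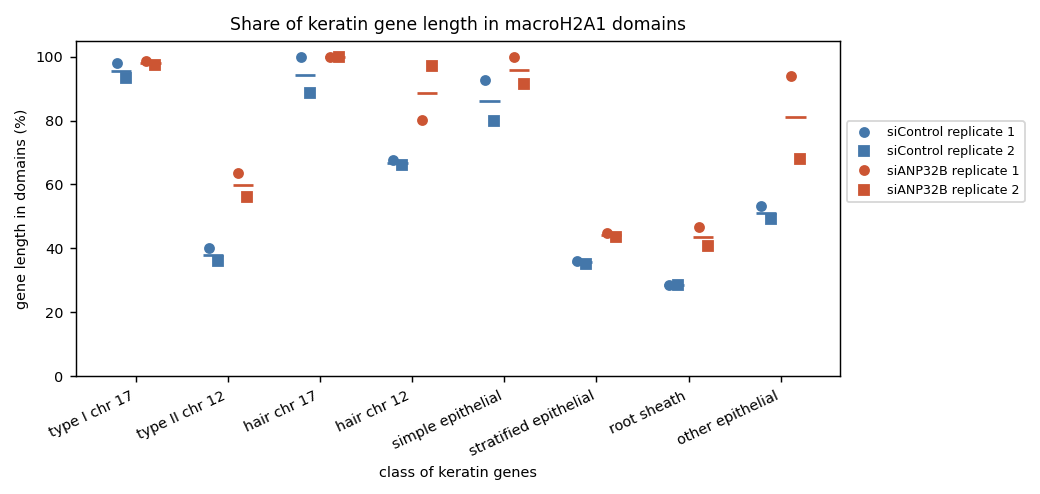
Percent of summed gene length in macroH2A1 domains for each class of keratin genes, with 1 point per library (circles, replicate 1; squares, replicate 2; blue, siControl; red, siANP32B) and a line at the mean of 2. Type II, chromosome 12 hair, stratified, root sheath and other epithelial keratins have both red points above both blue points; for type I, chromosome 17 hair and simple epithelial keratins the groups overlap or touch.

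In the authors' deposited table, every tested region over a keratin gene was either lower after siANP32B or did not pass. The authors' deposited table lists 4474 regions, of which 58.4% were lower and 3.82% higher after siANP32B at a false discovery rate (FDR) of 0.05. Its fold was read as log2, and negative folds as lower after siANP32B. The authors' deposited table has no entry for which group comes first, and the sign was taken from the domain lists. Of its 171 higher regions, 88.3% and 80.7% lay at least 50% in domains of the siControl libraries, and 99.4% in those of each siANP32B library. Of the 55 keratin genes, 10 overlapped 6 regions of the authors' deposited table, and 45 overlapped none. Of these 10 genes, 7 overlapped a lower region (70%), near the 60.7% of all protein-coding genes that overlap a tested region, and 0 overlapped a higher one. Over all 55 members the share was 12.7%, and over all protein-coding genes 5.61% overlapped a lower region of the authors' deposited table.

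**Figure D5:**
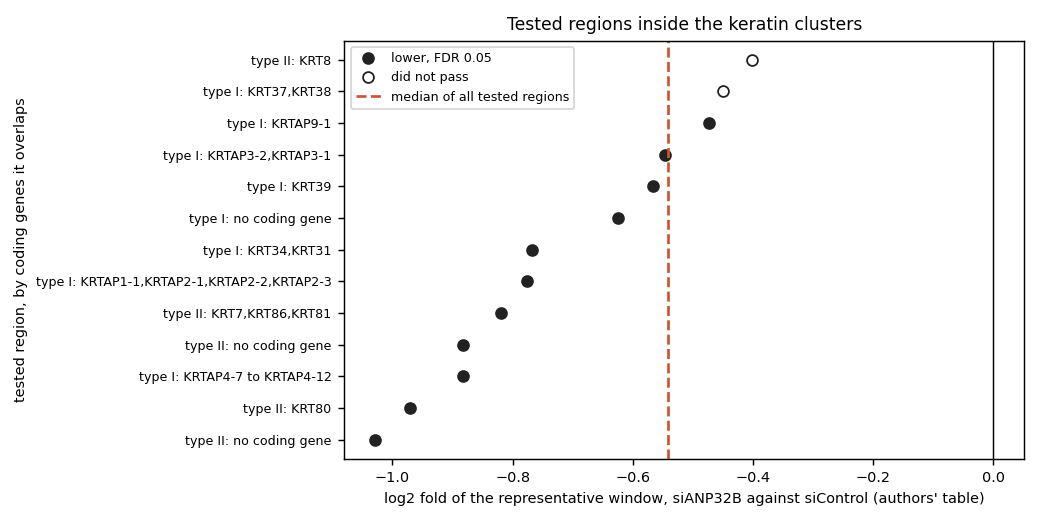
Log2 fold of the representative window (siANP32B against siControl, from the authors' deposited table) for the 13 tested regions inside the keratin cluster spans, labelled by the coding genes each overlaps; filled points are lower at FDR 0.05, open points did not pass, and the dashed line is the median of all tested regions (-0.54). All 13 points lie below 0, and the open ones are the regions over KRT8 and over KRT37 and KRT38.

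KRT7, KRT86 and KRT81 shared 1 region of 51 kb (chromosome 12, 52238001 to 52289000) with a log2 fold of -0.82 (FDR 0.000186) in the authors' deposited table. It holds 17.9 kb of KRT7, 79.0% of that gene, and 9 of its 19 windows were down in the authors' deposited table. The region listed for KRT80 touches only 5 bases of it, with a log2 fold of -0.97 in the authors' deposited table, and lies beside the gene. Between KRT80 and KRT7 a further region, from 52209001 to 52231000, overlaps no coding gene and had -1.03 (FDR 2.60e-07), with all 13 windows down, in the authors' deposited table.

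Near the hepatocyte pair, the region inside KRT8 (52911001 to 52923000) did not pass, with a log2 fold of -0.40 (FDR 0.0632) in the authors' deposited table, although all 3 of its windows were counted as down. A region of 38 kb that begins 95 bases past KRT18 was lower, with -0.76 (FDR 0.000982) in the authors' deposited table. On the KRT78 side of KRT8 another lower region, from 52861001 to 52875000, had -0.88 in the authors' deposited table. No tested region overlapped KRT18 itself.

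On chromosome 17 the hair keratin KRT39 overlapped a lower region (40962001 to 40977000) with a log2 fold of -0.57 (FDR 0.00483) in the authors' deposited table. KRT34 shared 3.82 kb and KRT31 only 280 bases with a lower region from 41380001 to 41394000, which had -0.77 (FDR 0.000236) in the authors' deposited table. The region over KRT37 and KRT38, from 41423001 to 41440000, did not pass, with -0.45 (FDR 0.0821) and none of its 8 windows down in the authors' deposited table. The upstream windows of KRT37 and KRT38 are 90% identical (225 of 250 bases). Whether such likeness affected the values over this pair was not tested.

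Over both cluster spans the authors' deposited table holds 13 regions, of which 11 were lower (84.6%) and 2 did not pass. Their median log2 fold was -0.77, against -0.54 over all regions of the authors' deposited table. It was -0.88 for the 5 regions of the type II span and -0.60 for the 8 of the type I span, beside -0.56 and -0.51 for all tested regions of chromosomes 12 and 17 in the authors' deposited table. At least 85.7% of the length of each of the 13 regions lay in domains in every library. KRT84, KRT82, KRT4 and KRT79, where domains were called after siANP32B only, overlapped no tested region, so the authors' deposited table gives no fold there. The sources used here do not name the scaling between libraries behind these folds.

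Related gene lists were set beside the keratins by count. Of 94 keratin-associated protein genes 39 (41.5%) were covered in both siControl libraries, against 13.7% of all protein-coding genes. The lists differed by site, with 31 of 34 on chromosome 17, 7 of 11 on chromosome 11 and 1 of 49 on chromosome 21. Of 15 other intermediate filament genes 7 (46.7%) were covered in both siControl libraries: DES of muscle, VIM of mesenchyme, INA and PRPH of neurons, NES of progenitor cells, and BFSP1 and BFSP2 of the lens. NES had 100% and 74.1% in siControl, against 0% in both siANP32B libraries. It was the only 1 of the 15 (6.67%) with a lower covered percent in both siANP32B than in both siControl libraries, against 2.92% of all protein-coding genes. GFAP and LMNA, 2 of the 15 (13.3%), had a higher one, against 8.98% of all protein-coding genes. The lamin genes LMNA, LMNB1 and LMNB2 were covered by at most 14.1% in any library. Of 16 genes for desmosome and hemidesmosome proteins that hold keratin filaments, 3 were covered in both siControl libraries (DSG1, DSG4 and DSC1). This is 18.75%, near the 13.7% of all protein-coding genes. DSG1 had 80.5% and 75.1% in siControl, against 12.8% and 19.1% in siANP32B libraries. Covered percent was lower in both siANP32B than in both siControl libraries for 3 of the 16 and higher for 1, where 2.92% and 8.98% of all protein-coding genes were.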

How the data were processed

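HepG2 cells were profiled by CUT&RUN (2 anti-macroH2A1 libraries per siRNA used here). Per the submitters' processing notes, the tools included SICER, edgeR, deepTools, SAMtools, Bowtie2 and Trim Galore, with build hg38. The sources used here give neither versions nor settings. Per library, the authors deposited a list of domains with the caller's score, used only to filter domains. The authors deposited a table of regions with p-value, FDR and log2 fold, per the file headers, copied without a test. It has 0 columns of values per sample.

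Domains were read to the end of their last 1 kb bin. The percent of each gene, class and cluster in domains was computed per library (Python 3.11.15, pandas 2.3.3, checked on 1000 simulated intervals). A gene counted as covered at 50% of its length. Groups were compared by exact permutation tests over libraries. Gene positions and promoters came from RefSeq (GRCh38.p14). Named genes followed a rule: the simple epithelial keratins, members overlapping a tested region, members covered in 1 group only, members at domain ends, and the 5 with the widest spread between libraries (6 tied at 100 points: KRT84, KRT82, KRT72, KRT4, KRT79 and KRT18); other names fill out the classes. Members, lists and classes were chosen with earlier results of these data known. Alternatives were a common score, equal domain numbers, 5 kb added around genes, other coverage marks, an FDR of 0.01, a replicate block and leaving out each library.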

Additional observations from a re-analysis of the deposited data

How the results depend on the processing

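Of 62 alternative values, 53 kept their direction and call, 7 reversed and 2 moved. The 7 reversals all came from keeping only domains at or above a common score. Then siANP32B minus siControl was -12.5 covered keratin genes, -29.4 points of keratin gene length, -41.3 points for type I on chromosome 17, -23.5 for type II, -51.3 for hair, -50.9 for simple and -2.17 for stratified epithelial keratins. Covered genes then averaged 15 in siControl and 2.5 in siANP32B libraries, and the siANP32B lists have the lower scores. Counting keratin genes in lower regions gave 4 when 50% of the gene had to lie in the region and 11 with 5 kb added on each side, in place of 7.

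Leaving out 1 library at a time gave differences of 5.5 to 7.5 genes, 12.7 to 17.9 points for all keratin gene length, 0.033 to 4.64 for type I, 18.1 to 25.4 for type II, 9.72 to 18.6 for hair, 3.14 to 16.0 for simple and 7.81 to 9.16 for stratified epithelial keratins. The type I value fell to 0.033 without siControl replicate 2 and rose to 4.64 without siControl replicate 1. The simple epithelial value was 3.14 without siControl replicate 2, 16.0 without siControl replicate 1 and 5.36 without siANP32B replicate 1.

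With the replicate number as a block the difference was 6.5 genes, 15.3 points over all, 2.34 for type I, 21.8 for type II, 14.2 for hair, 9.59 for simple and 8.49 for stratified epithelial keratins, with an exact p of 0.5, the smallest that 2 pairs allow. The labels do not say that a number marks a shared culture, and deviations of same-numbered libraries had a correlation of 0.082 over protein-coding genes.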

Other observations

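Of the 17 noncoding and pseudogene loci named for keratins in or just past the clusters, those on chromosome 17 (KRT224P, KRT223P, KRT41P, KRT43P and KRT42P) were at 100% in all 4 libraries, with KRT10-AS1 the exception. On chromosome 12, KRT7-AS, KRT87P, KRT88P, KRT86-AS2 and KRT89P were at 100% in all 4 libraries. KRT90P, between KRT82 and KRT75, was at 0% in all 4, and so were KRT73-AS1, KRT125P and KRT127P. KRT128P was at 100% in siANP32B replicate 2 alone and KRT126P in siANP32B replicate 1 alone.

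In siControl replicate 1 a single domain of 2 kb, from 52740001 to 52742000 on chromosome 12, lay alone between KRT77 and KRT76. Its score of 416.7 was at percentile 99.8 of its list, where 20 domains were 2 kb or shorter. No other library had a domain there.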
